A study of Mus musculus with 12 samples.

Results

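The 10 genes described here are members of the Notch pathway, namely the receptors Notch1, Notch2, Notch3 and Notch4, the ligands Jag1 and Dll4, and the target genes Hes1, Hey1, Hey2 and Heyl. They were taken by gene symbol from a table of 26264 symbols. All 10 were among the 17002 genes that passed the filter on low counts. The libraries are poly(A)-selected RNA-seq of magnetic bead-isolated glomeruli, the filtering units of the kidney, from 8-week-old male mice of 2 BALB/c substrains. Groups of 3 replicate libraries each came from untreated BALB/cAjcl (Ajcl) mice, untreated BALB/cByJcl (ByJcl) mice, and both substrains on Day 5 after a single intravenous dose of adriamycin (ADR, doxorubicin) of 10 mg/kg, a drug that injures podocytes. Neither substrain carries a transgene, and no saline-injected Day 5 library was used here, so ADR, the injection and the 5 days cannot be told apart. The baseline and Day 5 counts also came in separate tables.

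Notch receptors are cleaved when a ligand on a neighbouring cell binds them, and the freed intracellular part joins the DNA-binding protein RBPJ and switches on genes of the Hes and Hey families, which encode transcriptional repressors. In blood vessels Dll4 is an endothelial ligand, Notch1 and Notch4 are receptors of endothelial cells, and Notch3 is a receptor of the contractile cells around them. Hey1, Hey2 and Heyl are known as vascular targets of the pathway. Fewer cells of a type and less RNA per cell cannot be told apart in these bulk samples.

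Each library held between 42198416 and 54687045 counts. Levels are CPM, a gene's counts relative to the library total, with totals scaled by edgeR's trimmed mean of M values (TMM). Ajcl Day 5 replicate 1 was left out of the fit, which therefore rests on 11 libraries, and its level is given beside those of each member. The study's primary analysis also left it out, for reduced glomerular purity. The 10 podocyte markers of the glomerulus, among them Synpo and Podxl, were all detected. They summed to between 13710 and 18800 CPM in Ajcl and between 17320 and 19590 CPM in ByJcl at baseline. At Day 5 they summed to 10300 and 14620 CPM in Ajcl, with 8513 CPM in the library left out, and to between 8012 and 10700 CPM in ByJcl. Libraries also differed by transcript length. In Ajcl Day 5 replicate 1 the median deviation from the 12-library mean was 0.42 (log2) for the shortest of 6 length classes and -0.47 for the longest. It went from 0.17 to -0.14 in Ajcl baseline replicate 1 and from 0.10 to -0.10 in ByJcl Day 5 replicate 1. The other 9 libraries did not fall from the shortest to the longest class in this way. All 4 receptors lie in the longest class, from 6188 bases.

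**Figure D1:**
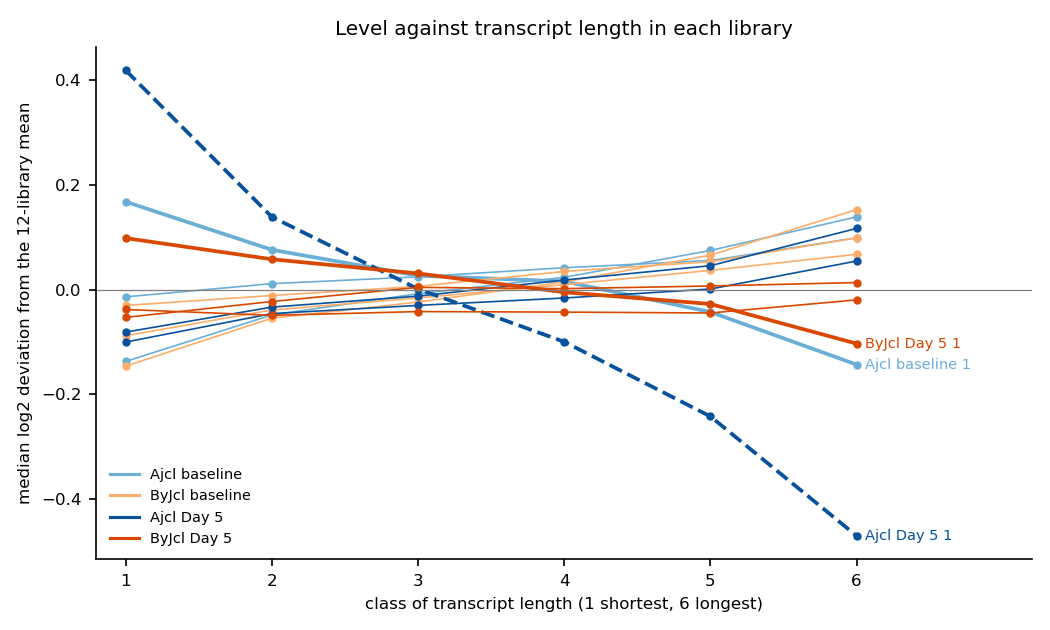
Median log2 deviation of a library from the mean of the 12 libraries (vertical axis) in 6 classes of transcript length (horizontal axis, 1 shortest, 6 longest), with 1 line per library. Ajcl Day 5 replicate 1 (dashed) falls from 0.42 to -0.47, and Ajcl baseline replicate 1 and ByJcl Day 5 replicate 1 (thick lines) fall less.

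Of the 10 members Dll4 had the largest change in ByJcl at Day 5. The gene lies at chromosome 2, 119156170 to 119166443 (GRCm39, plus strand), and encodes a membrane ligand. It stood at 102, 94.4 and 95.5 CPM in Ajcl and 113, 148 and 105 CPM in ByJcl at baseline. At Day 5 it stood at 77.7 and 55.2 CPM in Ajcl, with 57.7 CPM in the library left out, and at 55.4, 29.6 and 48.5 CPM in ByJcl. Every Day 5 library was below every baseline library. This held for 1 of 10 members, Dll4, and for 2.21% of all tested genes.

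In ByJcl, Dll4 fell by 1.47 on the log2 scale (SE 0.22, adjusted p = 0.0032), a level 63.9% lower. Adjusted p-values here come from the quasi-likelihood test of edgeR, adjusted by Benjamini-Hochberg over all 17002 genes, and a call means an adjusted p below 0.05. In Ajcl the log2 change was -0.54 (SE 0.24, edgeR adjusted p = 0.502), which missed the threshold. It was -0.81 without Ajcl Day 5 replicate 2 and -0.34 without Ajcl Day 5 replicate 3. The difference between the substrains in the change was -0.93 (SE 0.32, unadjusted p = 0.0137, edgeR adjusted p = 0.62), so it was not called either, and it ranged from -1.13 to -0.65 without 1 library. Averaged over substrains, a contrast added here to those of the study, Dll4 fell by 1.00 (SE 0.16, edgeR adjusted p = 0.0039).

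Hey2, a target gene at chromosome 10, 30708350 to 30718828 (minus strand), also fell in ByJcl. Its baseline levels were 18.9, 16.6 and 15.8 CPM in Ajcl and 21.9, 17.4 and 12.1 CPM in ByJcl. At Day 5 the ByJcl libraries stood at 8.46, 8.62 and 9.77 CPM, below all 6 baseline libraries. The Ajcl libraries stood at 15.0 and 10.0 CPM, with 11.9 CPM in the library left out, below all Ajcl baseline libraries but not all ByJcl ones. Hey2 fell by 0.95 on the log2 scale in ByJcl (SE 0.22, edgeR adjusted p = 0.0209), and its change in Ajcl was -0.44 (SE 0.24, edgeR adjusted p = 0.617). The Ajcl value was -0.76 without Ajcl Day 5 replicate 2 and -0.20 without Ajcl Day 5 replicate 3. Averaged over substrains it fell by 0.69 (SE 0.16, edgeR adjusted p = 0.0219). The ByJcl call was lost without any one of ByJcl baseline replicate 1 or 2 or ByJcl Day 5 replicate 1 or 2, with adjusted p between 0.0547 and 0.0831. The averaged call was lost without Ajcl Day 5 replicate 3 (adjusted p = 0.14) or ByJcl Day 5 replicate 2 (adjusted p = 0.0543).

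Hey1, the related target gene at chromosome 3, 8726956 to 8732385 (minus strand), was called in the averaged contrast. It stood at 27.9, 23.8 and 23.8 CPM in Ajcl and 31.2, 29.7 and 21.7 CPM in ByJcl at baseline. Day 5 levels were 17.7 and 13.1 CPM in Ajcl, with 17.6 CPM in the library left out, and 13.7, 10.0 and 22.7 CPM in ByJcl. ByJcl Day 5 replicate 3 was the one library inside the baseline range. Averaged over substrains Hey1 fell by 0.77 (SE 0.20, edgeR adjusted p = 0.0334). Hey1 lost this call with the replicate number added as a block. Its log2 change was -0.84 in ByJcl (SE 0.26, edgeR adjusted p = 0.0659) and -0.70 in Ajcl (SE 0.30, edgeR adjusted p = 0.479). The averaged call was lost in 8 of 11 fits that each left out 1 library, with adjusted p up to 0.184.

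In all, 2 of 10 members were called lower at Day 5 in ByJcl, beside 4.83% of all genes, and none higher. DESeq2 called 4 of 10 lower there, beside 6.9%. In Ajcl 0 of 10 were called in edgeR, beside 0.312% of all genes called in either direction. There 2 members and 1666 of all 17002 genes had an unadjusted p below 0.05 in edgeR. DESeq2 also called 0 of 10 there, beside 1.77%. Averaged over substrains, 3 of 10 were called lower, beside 4.15% of all genes, or 10.4% in either direction. In ByJcl that share was 10.6%. The median log2 change over the 10 members in ByJcl was -0.35, beside 0.0066 over all tested genes, and -0.22 with a correction for transcript length. In Ajcl it was -0.059, beside -0.0091 over all genes, and averaged over substrains -0.16, beside -0.0042. With all 12 libraries these medians were -0.34 in ByJcl, -0.20 in Ajcl and -0.25 averaged, beside 0.0156, 0.0061 and 0.0165 over all genes. The Ajcl change was then negative for 10 of 10 members, and for 5 of 10 in the fit of 11 libraries. The library restored there has the steepest fall with transcript length, and its part in this was not tested. Of the podocyte markers, 9 of 10 in ByJcl were called lower at Day 5 (median log2 change -1.11), and in Ajcl 0 of 10 by edgeR and 1 by DESeq2 (median -0.36 in edgeR, with 3 at an unadjusted p below 0.05). The difference between the substrains in the change had a median of -0.83 over these markers, with 0 called and 8 at an unadjusted p below 0.05 in edgeR. Their part in the changes of the members was not tested. In the test of the difference between substrains 0 of 10 members and 0 genes in all (0.0%) were called by edgeR. There 3 members and 1363 genes had an unadjusted p below 0.05, and DESeq2 called 0 members and 23 genes (0.135%).

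**Figure D2:**
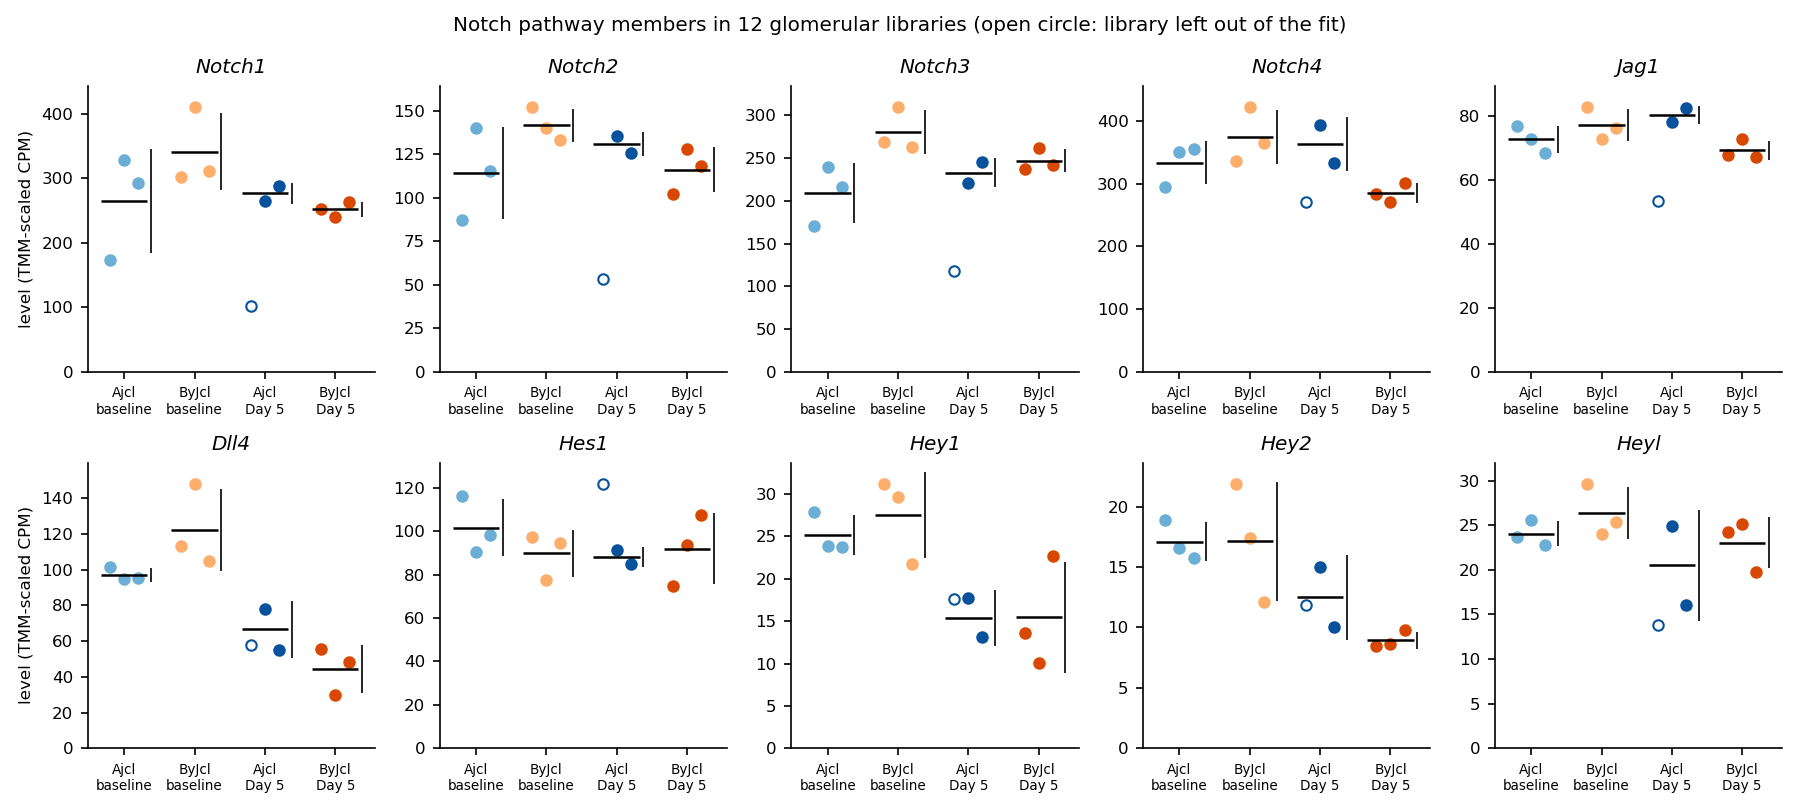
Level of each member in TMM-scaled CPM (vertical axis, from 0) in the 12 libraries by group, with the mean (line) and SD (vertical bar) of the libraries in the fit and the library left out as an open circle. All Day 5 points of Dll4 lie below all baseline points, at 29.6 to 77.7 CPM beside 94.4 to 148 CPM.

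**Figure D3:**
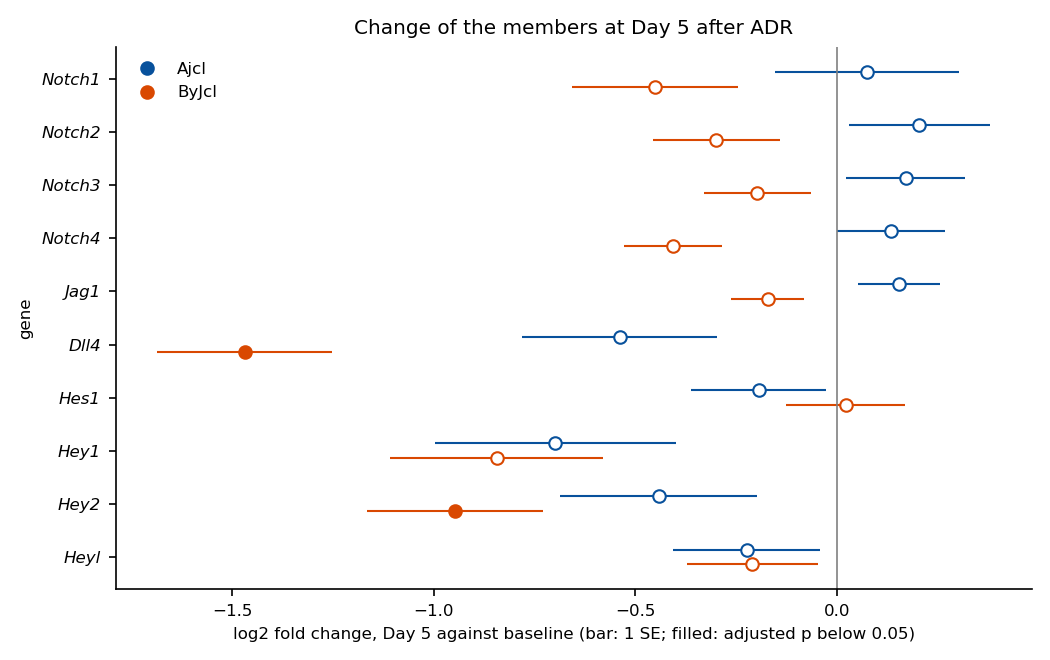
Log2 fold change of each member at Day 5 against baseline (horizontal axis) in Ajcl and ByJcl, with 1 SE as a bar and filled points for adjusted p below 0.05. Dll4 at -1.47 and Hey2 at -0.95 in ByJcl are the filled points.

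The windows before the transcript starts of Dll4 and Hey2, the pair called in ByJcl, were read for GTGGGAA, a core of the RBPJ binding sequence, on both strands. The motif and the window were chosen after these sequences had been read. RefSeq (GRCm38.p6) gave a window for 7 of 10 members, leaving out Hes1, Hey1 and Heyl. Each sequence below runs 5′ to 3′ from 250 bases before the start to 10 bases from it on, and capitals mark the motif or its reverse complement TTCCCAC. The Dll4 window is chr2:119325534-119325793 (plus strand) and the Hey2 window chr10:30842774-30843033 (minus strand).
Dll4: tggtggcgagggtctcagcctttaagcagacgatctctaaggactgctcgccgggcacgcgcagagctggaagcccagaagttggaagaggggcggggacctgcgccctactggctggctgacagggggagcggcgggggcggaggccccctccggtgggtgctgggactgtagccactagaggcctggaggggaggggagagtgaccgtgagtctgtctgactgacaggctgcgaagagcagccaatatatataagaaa
Hey2: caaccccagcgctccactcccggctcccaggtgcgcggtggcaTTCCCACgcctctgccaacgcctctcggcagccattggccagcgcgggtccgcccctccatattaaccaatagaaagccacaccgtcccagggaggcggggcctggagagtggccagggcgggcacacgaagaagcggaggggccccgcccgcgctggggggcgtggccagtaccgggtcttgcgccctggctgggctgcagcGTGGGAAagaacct
Of the 7 members, Hey2 held the motif, at 207 bases before the start on the opposite strand and at 4 bases before the start, where the match runs across the start. The counts moved with the window. In the 250 bases before the start Hey2 held it at 1 place, as 5.42% of 32851 windows did at 1 or more places. In the 260 bases shown Hey2 held it at 2 places, as 0.186% of windows did at 2 or more, and in all 300 bases given by RefSeq that share was 0.256%. A match of these letters is not a measured site.

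The receptors changed less. Notch4 (chromosome 17, 34783220 to 34807477, plus strand), an endothelial receptor, stood at 294, 351 and 356 CPM in Ajcl and 337, 422 and 365 CPM in ByJcl at baseline. Day 5 levels were 394 and 333 CPM in Ajcl, with 271 CPM in the library left out, and 283, 271 and 302 CPM in ByJcl. The ByJcl Day 5 libraries lay below all ByJcl baseline libraries. The log2 change was -0.41 in ByJcl (SE 0.12, edgeR adjusted p = 0.0553) and 0.14 in Ajcl (SE 0.13, edgeR adjusted p = 0.816), and the difference between them was -0.54 (SE 0.18, unadjusted p = 0.012, edgeR adjusted p = 0.62).

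Notch1 (chromosome 2, 26347915 to 26406675, minus strand), the other endothelial receptor here, stood at 173, 328 and 293 CPM in Ajcl and 302, 410 and 312 CPM in ByJcl at baseline. At Day 5 it stood at 265 and 289 CPM in Ajcl, with 102 CPM in the library left out, and at 253, 240 and 263 CPM in ByJcl. Its 2 lowest libraries, Ajcl baseline replicate 1 and Ajcl Day 5 replicate 1, are those with the steepest fall with transcript length. Notch3 (chromosome 17, 32339794 to 32385893, minus strand), the receptor of mural cells, ranged from 170 to 239 CPM in Ajcl and 264 to 309 CPM in ByJcl at baseline. At Day 5 it stood at 221 and 245 CPM in Ajcl, with 118 CPM in the library left out, and at 237 to 262 CPM in ByJcl. Notch2 (chromosome 3, 97920800 to 98057677, plus strand), a widely expressed receptor, ranged from 87.2 to 140 CPM in Ajcl and 133 to 152 CPM in ByJcl at baseline. Its Day 5 levels were 136 and 126 CPM in Ajcl, with 53.1 CPM in the library left out, and 102 to 128 CPM in ByJcl.

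None of these 3 receptors was called at Day 5 by edgeR. In ByJcl the log2 changes were -0.45 for Notch1 (SE 0.21), -0.30 for Notch2 (SE 0.16) and -0.20 for Notch3 (SE 0.13), with adjusted p of 0.187, 0.255 and 0.376. In Ajcl they were 0.07, 0.21 and 0.17, and with all 12 libraries they were -0.28, -0.12 and -0.10. A correction for transcript length, chosen after the length trend was seen, gave -0.28, -0.12 and -0.06 in ByJcl, and -0.30 for Notch4. The same correction gave -1.45 for Dll4, -0.83 for Hey1 and -0.97 for Hey2, and the same calls.

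At baseline 0 of 10 members were called between the substrains by edgeR, beside 0.159% of all genes, and DESeq2 called 0, beside 0.594%. Of the members, Notch3 alone had an unadjusted p below 0.05 in edgeR, beside 1418 of all 17002 genes. Notch3 was higher in every ByJcl library than in every Ajcl library, with a log2 difference of 0.45 (SE 0.13, unadjusted p = 0.0055, edgeR adjusted p = 0.503). Dll4 did not overlap either, at 0.36 higher in ByJcl (SE 0.21, edgeR adjusted p = 0.641). These 2 of 10 members compare with 7.86% of all genes that were higher in ByJcl without overlap. Without 1 library these differences ranged from 0.30 to 0.58 for Notch3 and from 0.19 to 0.45 for Dll4. Notch1 and Notch2 overlapped, with log2 differences of 0.39 and 0.34. Without Ajcl baseline replicate 1, one of the libraries that fall with transcript length, they were 0.14 and 0.15, and without Ajcl baseline replicate 2 they were 0.60 and 0.53. Averaged over time points Notch3 differed by 0.27 (SE 0.10, edgeR adjusted p = 0.229), beside 0.565% of all genes called.

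At Day 5 the substrain comparison called 0 of 10 members in edgeR, beside 0.165% of all genes, and DESeq2 called 0, beside 3.26%. Of the members, 2 had an unadjusted p below 0.05 in edgeR, beside 2374 of all 17002 genes. The log2 differences of ByJcl from Ajcl were -0.57 for Dll4 (SE 0.24), -0.48 for Hey2 (SE 0.24), -0.35 for Notch4 (SE 0.13) and -0.21 for Jag1 (SE 0.10), with edgeR adjusted p between 0.3 and 0.407. Without 1 library these values ranged from -0.79 to -0.31 for Dll4, -0.72 to -0.17 for Hey2, -0.45 to -0.23 for Notch4 and -0.25 to -0.16 for Jag1. The value nearest 0 came without Ajcl Day 5 replicate 2 for Dll4, Hey2 and Notch4. With all 12 libraries the values were -0.51 for Dll4, -0.46 for Hey2, -0.22 for Notch4 and -0.041 for Jag1. Without overlap, 4 of 10 members were lower in ByJcl, beside 16.4% of all genes, with 2 Ajcl libraries. These were Hey2, Notch4, Notch1 and Jag1, while Dll4 overlapped, at up to 55.4 CPM in ByJcl and from 55.2 CPM in Ajcl. With the library left out restored, Hey2 alone of these 4 did not overlap. Beside these values, the log2 difference was negative for 10 of 10 podocyte markers (median -0.50), with 0 called and 6 at an unadjusted p below 0.05 in edgeR, and 1 called in DESeq2. The 5 arterial markers had positive differences (median 0.55), with 0 called and 3 at an unadjusted p below 0.05 in edgeR, and 2 called in DESeq2. A glomerular preparation can also hold cells of the tubules. The 4 distal nephron markers summed to 731 and 961 CPM in Ajcl at Day 5, with 1730 CPM in the library left out, and to between 94.7 and 493 CPM in ByJcl. The 6 proximal tubule markers summed to 1295 and 1752 CPM, with 3405 CPM in the library left out, and to between 330 and 1386 CPM. The log2 difference was negative for all 10 of these tubular markers at both time points, with 0 called by edgeR or DESeq2, and 1 distal and 0 proximal markers had an unadjusted p below 0.05 in edgeR at each. No tubular marker was at 0 in every library. Of 5 smooth muscle markers (median 0.30, 1 negative), edgeR called 1 higher at Day 5. The 6 immune markers (median 1.04, 1 negative) had 0 called and 3 at an unadjusted p below 0.05 in edgeR. The 3 parietal epithelial markers (median -0.37, 2 negative) had 0 called and 3 at an unadjusted p below 0.05. DESeq2 called 1 smooth muscle, 1 immune and 0 parietal markers. The part of all these markers in the substrain differences was not tested.

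Jag1 (chromosome 2, 136923373 to 136958693, minus strand) is a ligand of the Jagged class. It stood at 76.9, 73.0 and 68.5 CPM in Ajcl and 82.9, 73.0 and 76.3 CPM in ByJcl at baseline. Day 5 levels were 78.3 and 82.4 CPM in Ajcl, with 53.3 CPM in the library left out, and 67.9, 72.9 and 67.3 CPM in ByJcl. The log2 change was 0.15 in Ajcl (SE 0.10, edgeR adjusted p = 0.702) and -0.17 in ByJcl (SE 0.09, edgeR adjusted p = 0.256).

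Hes1 (chromosome 16, 29882134 to 29886643, plus strand) encodes a repressor that many signals besides Notch induce. It ranged from 77.5 to 116 CPM over the 6 baseline libraries and from 74.8 to 107 CPM over the 5 Day 5 libraries of the fit, with 122 CPM in the library left out. Its groups overlapped in every comparison. The log2 change was 0.02 in ByJcl (SE 0.15) and -0.19 in Ajcl (SE 0.17), with edgeR adjusted p of 0.946 and 0.784, and with the length correction the ByJcl value was -0.03. Heyl (chromosome 4, 123127349 to 123143682, plus strand), a target gene of mural cells, ranged from 22.8 to 29.7 CPM at baseline and from 16.1 to 25.1 CPM at Day 5, with 13.8 CPM in the library left out. Its log2 change was -0.21 in ByJcl (SE 0.16) and -0.22 in Ajcl (SE 0.18), with edgeR adjusted p of 0.454 and 0.772.

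Counting libraries rather than fitted changes, 7 of 10 members were lower at Day 5 in ByJcl without overlap, beside 15.1% of all genes. These were the 4 receptors, Jag1, Dll4 and Hey2. In Ajcl, with 2 libraries at Day 5, 3 were lower (Dll4, Hey1 and Hey2), beside 12.5% of all genes, and Jag1 was higher, beside 13.4%. The 3 that were lower in Ajcl stayed below baseline with the third library, and Jag1 did not stay above it.

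The 11 endothelial markers did not move one way at Day 5. They summed to between 8305 and 10380 CPM over the 6 baseline libraries and between 6131 and 8514 CPM over the 5 Day 5 libraries. In the library left out the sum was 6479 CPM. None was at 0. In ByJcl the log2 change was negative for 7 of 11, of which Cldn5, Ehd3 and Flt1 fell, with log2 changes of -1.67, -0.81 and -0.54. It was positive for 4, with 0.14 for Cdh5, 0.29 for Pecam1 and 0.54 for Egfl7, of which Esam rose, by 0.68. These counts of 3 lower and 1 higher stand beside 4.83% and 5.75% of all genes. DESeq2 called 4 lower and 2 higher, beside 15.8% in either direction. With all 12 libraries they were 1 and 1, beside 7.21%, since Ehd3 (edgeR adjusted p = 0.0524) and Flt1 (edgeR adjusted p = 0.109) were lost. Over 11 fits that each left out 1 library, the ByJcl call was lost in 9 for Flt1, 4 for Ehd3, 2 for Esam and 0 for Cldn5. In Ajcl 0 of 11 were called in edgeR, beside 0.312% of all genes. There 2 of 11 had an unadjusted p below 0.05, beside 1666 of all 17002 genes. The 5 arterial markers, which include Gja4, Gja5 and Sox17, summed to between 422 and 534 CPM at baseline, 395 to 429 CPM in Ajcl at Day 5 (422 CPM in the library left out) and 494 to 614 CPM in ByJcl at Day 5. Of these, Fbln5 rose in ByJcl.

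Per 1000 CPM of the endothelial list, Dll4 stood at 11.04 ± 1.03 in Ajcl and 12.8 ± 1.28 in ByJcl at baseline (SD, n = 3 each), and at 5.91 ± 0.935 in ByJcl at Day 5 (SD, n = 3). The 2 Ajcl Day 5 libraries stood at 9.21 and 7.13, and the library left out at 8.90. All Day 5 libraries again lay below all baseline libraries, whose lowest value was 10.4. Hey1 went from 2.91 ± 0.491 to 2.08 ± 0.791 and Hey2 from 1.81 ± 0.536 to 1.23 ± 0.212 in ByJcl (SD, n = 3 each), and both overlapped with baseline on this scale over the 11 libraries. Notch4 stood at 39.6 ± 2.28 and 39.1 ± 5.45 (SD, n = 3 each) in ByJcl at baseline and Day 5. In Ajcl it stood at 37.7 ± 1.98 at baseline (SD, n = 3) and at 46.7 and 43.0 at Day 5, with 41.8 in the library left out, above all 3 Ajcl baseline libraries. In Ajcl, Hey1 went from 2.87 ± 0.427 at baseline (SD, n = 3) to 2.10 and 1.69, below all 3 Ajcl baseline libraries, with 2.71 in the library left out, which overlapped. Hey2 went from 1.95 ± 0.291 at baseline (SD, n = 3) to 1.77 and 1.29, with 1.83 in the library left out, and overlapped. How much of each change goes with the amount of endothelial RNA was not tested.

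**Figure D4:**
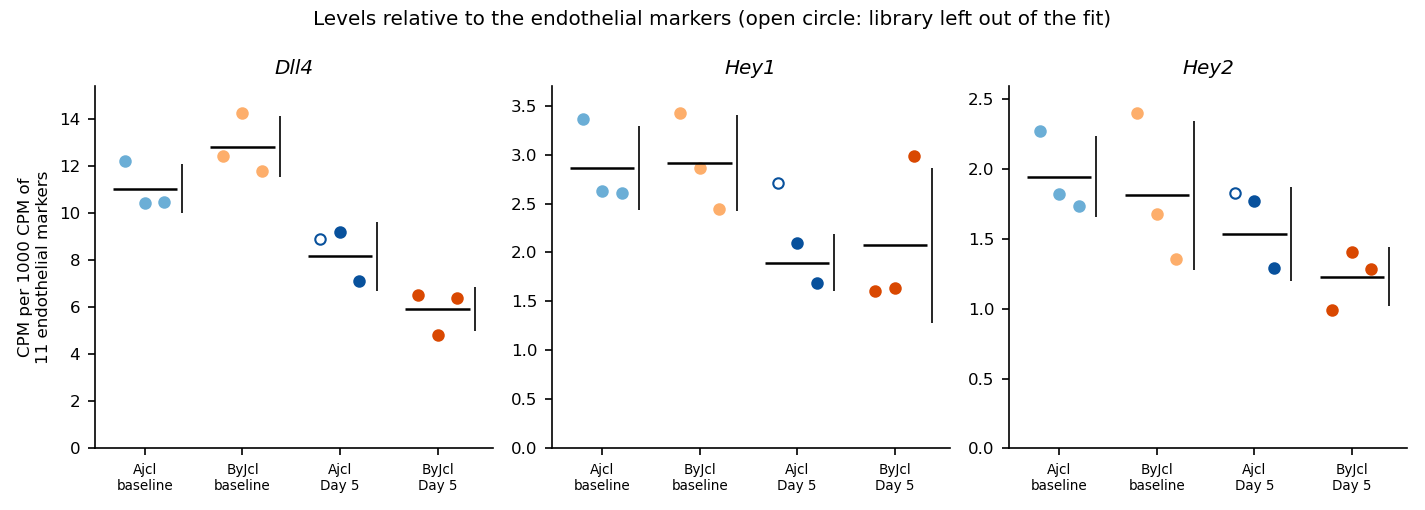
CPM of Dll4, Hey1 and Hey2 per 1000 CPM of 11 endothelial markers (vertical axis, from 0) by group, with the mean (line), SD (vertical bar) and the library left out as an open circle. Dll4 lies at 4.83 to 9.21 at Day 5 and from 10.4 upwards at baseline.

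For the mural cell genes, the mesangial markers summed to between 1938 and 2456 CPM at baseline and between 2404 and 3170 CPM in ByJcl at Day 5. In Ajcl at Day 5 they stood at 2093 and 2339 CPM, with 1951 CPM in the library left out. The smooth muscle markers summed to between 315 and 394 CPM at baseline and between 517 and 646 CPM in ByJcl at Day 5. In Ajcl at Day 5 they stood at 357 and 375 CPM, within the baseline range, with 418.5 CPM in the library left out. Per 1000 CPM of both lists Notch3 went from 105 ± 7.97 to 73.4 ± 11.3 in ByJcl, and Heyl from 9.89 ± 1.05 to 6.84 ± 1.29 (SD, n = 3 each). In Ajcl, Notch3 stood at 88.0 ± 13.2 at baseline (SD, n = 3) and at 90.2 and 90.3 at Day 5, with 49.8 in the library left out. Heyl stood at 10.2 ± 0.216 in Ajcl at baseline (SD, n = 3) and at 10.2 and 5.94 at Day 5, with 5.81 in the library left out. The part of those markers in the Notch3 and Heyl values was not tested.

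Levels of different genes can be set side by side per kilobase of the canonical transcript. Over the 11 libraries of the fit the means were 61.1 CPM per kb for Hes1, 51.0 for Notch4, 30.1 for Notch3, 30.0 for Notch1 and 21.9 for Dll4. They were 13.0 for Jag1, 11.9 for Notch2, 5.51 for Hey1, 5.44 for Hey2 and 5.22 for Heyl. These means pool baseline and Day 5, and the order differed between groups. In ByJcl, Dll4 stood at 31.8 ± 5.96 CPM per kb at baseline and 11.6 ± 3.48 at Day 5, beside 12.1 ± 0.531 for Jag1 at Day 5 (SD, n = 3 each). Notch3 and Notch1, Hey1 and Hey2, and Hey2 and Heyl were not separated, the first of each pair being higher in 5, 5 and 7 of 11 libraries. Of the summed per-kb level of the 4 receptors, Notch4 made up 44.3% ± 3.84 in Ajcl and 40.2% ± 1.17 in ByJcl at baseline (SD, n = 3 each). At Day 5 its share was 38.8% ± 1.60 in ByJcl (SD, n = 3), and 46.7% and 40.9% in the 2 Ajcl libraries. The Notch3 share in ByJcl was 24.7% ± 0.707 at baseline and 27.5% ± 1.63 at Day 5 (SD, n = 3 each).

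Across the 11 libraries Dll4 correlated with Hey1 (Pearson r = 0.862) and Hey2 (r = 0.846), and Hey1 with Hey2 (r = 0.848). Hes1 correlated with Dll4 at r = 0.0057. These values of log2(CPM + 0.5) describe libraries that share the step from baseline to Day 5, so they carry no test. Of all tested genes, Lpcat1 (r = 0.971) and Ttc7 (r = 0.97) were most like Dll4, Zmym1 (r = 0.976) and Tmem33 (r = 0.975) most like Hey2, and Fbxo46 (r = 0.962) and B3gnt2 (r = 0.953) most like Hey1. Ptpn14 (r = 0.986) was most like Notch2, Chd4 (r = 0.97) most like Notch3, Nisch (r = 0.963) most like Notch1 and Col20a1 (r = 0.94) most like Notch4. For the rest, the highest values were with 3010001F23Rik for Jag1 (r = 0.884), Nbn for Hes1 (r = 0.929) and Ctdspl for Heyl (r = 0.9). The receptors share their length class, and the part of transcript length in these correlations was not tested.

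Of 67 other genes of the pathway, 63 were tested, and 12 were called by edgeR in some comparison. Dll3, Hes3, Hes5 and Helt did not pass the filter. In ByJcl 4 rose and 5 fell at Day 5, beside 5.75% and 4.83% of all genes. In Ajcl 1 rose, beside 0.306%. Averaged over substrains 6 rose and 3 fell, beside 6.29% and 4.15%. Dner, at 0 in every baseline library and tested through its Day 5 counts alone, is among the 6 and the 12. DESeq2 called 8 higher and 7 lower in ByJcl, 1 and 1 in Ajcl, and 9 and 4 averaged over substrains, beside 15.8%, 1.77% and 14.6% of all genes in either direction. With all 12 libraries edgeR called 4 higher and 2 lower in ByJcl, beside 7.21% in either direction. There Bhlhe40, Dlk1, Mib1 and Rfng lost their calls, with adjusted p of 0.0516, 0.0537, 0.112 and 0.0796. Over 11 fits that each left out 1 library, Lfng, Mib2 and Myc kept their ByJcl calls in all. The ByJcl call was lost in 2 of these fits for Dlk2, 3 for Mfng, 4 for Bhlhe40, 6 for Mib1, 8 for Dlk1 and 10 for Rfng, and the Ajcl call of Dlk2 in 8. Averaged over substrains, Dll1 lost its call in 8 and with all 12 libraries (edgeR adjusted p = 0.0505). Mfng lost its averaged call in 7 of these fits, Mib2, Myc and Neurl1b in 1 each, and Dner in 2 of 10. Dlk1, Dlk2 and Lfng kept theirs in all. Between substrains edgeR called 0 of the 63 at baseline, at Day 5 and averaged over time points. There 2, 7 and 8 had an unadjusted p below 0.05, beside 1418, 2374 and 2698 of all 17002 genes. DESeq2 called 0, 3 and 3 there, all higher in ByJcl, beside 0.594%, 3.26% and 4.09% of all genes. Both tools called 0 in the difference of the changes. There 3 had an unadjusted p below 0.05 in edgeR and 4 in DESeq2, beside 1363 and 1454 of all genes.

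Among the Fringe glycosyltransferases, which change the ligand preference of Notch receptors, the members moved in opposite directions in ByJcl. Lfng stood at 52.2, 56.2 and 52.5 CPM at baseline and 121, 122.6 and 118 CPM at Day 5, a log2 rise of 1.16 (SE 0.15, edgeR adjusted p = 0.0017). Mfng fell by 0.61 (SE 0.14, edgeR adjusted p = 0.0208) and Rfng fell by 0.44 (SE 0.12, edgeR adjusted p = 0.0475). In Ajcl, Lfng ranged from 47.5 to 52.3 CPM at baseline and stood at 54.3 and 86.7 CPM at Day 5, with 75.7 CPM in the library left out. Its log2 change there was 0.51 (SE 0.16, edgeR adjusted p = 0.291), and the difference between the substrains in the change was 0.65 (SE 0.22, edgeR adjusted p = 0.62).

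Of the noncanonical ligands, Dlk2 rose in both substrains, by 2.01 in Ajcl (SE 0.34, edgeR adjusted p = 0.0391) and by 1.53 in ByJcl (SE 0.31, edgeR adjusted p = 0.012). It was the one pathway gene that edgeR called in Ajcl. Dlk1 fell in ByJcl, with a log2 change of -1.08 (SE 0.29, edgeR adjusted p = 0.0392). In Ajcl its log2 change was -1.45 (SE 0.34, unadjusted p = 0.0013, edgeR adjusted p = 0.138), which missed the threshold, and averaged over substrains it fell by 1.26 (SE 0.22, edgeR adjusted p = 0.006). The canonical ligand Dll1 rose by 0.47 averaged over substrains (SE 0.13, edgeR adjusted p = 0.0436). Dner was at 0 in all 6 baseline libraries and between 0.0442 and 0.299 CPM at Day 5, which is too few counts for a fold. It passed the filter on low counts through its Day 5 libraries alone, so the direction of its test was fixed. Its call in the averaged contrast (edgeR adjusted p = 0.024) is therefore not read as a result.

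The ubiquitin ligases Mib1 and Mib2, which let ligands be taken up by the sending cell, fell in ByJcl with log2 changes of -0.50 (SE 0.13) and -0.63 (SE 0.12) and edgeR adjusted p of 0.0382 and 0.008. Neurl1b, a ligase of the Neuralized family, rose by 0.63 averaged over substrains (SE 0.13, edgeR adjusted p = 0.0122). Of the other target genes, Myc, a growth regulator with many inputs, went from 2.32, 2.90 and 3.62 CPM to 6.31, 14.4 and 9.60 CPM in ByJcl, a log2 rise of 1.76 (SE 0.32, edgeR adjusted p = 0.0078). Bhlhe40 rose by 0.60 in ByJcl (SE 0.16, edgeR adjusted p = 0.0363). The nuclear complex and the corepressors, 9 and 11 tested genes, had 0 called in edgeR in ByJcl, beside 10.6% of all genes. Unadjusted p was below 0.05 for 1 and 2 of them, beside 4557 of all 17002 genes. DESeq2 called 1 and 0 there, the 1 being lower.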

How the data were processed

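The authors deposited whole-number counts per gene and library, in separate baseline and Day 5 tables, made with featureCounts from STAR alignments to GRCm39 after read trimming by Trimmomatic. The gene annotation and the strand setting of the counting are not given in the sources used here, so reads of overlapping genes, such as those on the opposite strand at 8 of the 10 members, cannot be told apart. Counts were used as deposited. Between 77.1% and 82.8% of counts from 1 to 49 in a library were even, so halved counts were an alternative. Genes were filtered by edgeR's filterByExpr and tested with its quasi-likelihood test (edgeR 4.0.16, R 4.3.3) in 1 fit of 4 groups, with TMM scaling, for 7 contrasts, and p-values were adjusted over 17002 genes. DESeq2 1.42.0 was an alternative. The contrasts averaged over substrains and over time points, and the interaction, follow from the layout of the groups. Levels were scaled over all 12 libraries, fold changes over 11. Gene positions and canonical transcript lengths are from GENCODE vM39. Groups and replicate numbers came from the labels, which do not say that numbers pair mice. P-values set a difference between groups against the spread between libraries, estimated over the 4 groups together. No 2 libraries were copies of each other. All named members, pathway genes called in any contrast and the 2 most like genes per member were eligible for naming. The members and gene lists were chosen with earlier results of these data known. The scripts were tested on simulated data. Alternatives were other scalings and filters, DESeq2, all 12 libraries, the replicate block, each library left out and, chosen after seeing the data, the length correction and combinations of these. One gene of the marker lists is not reported here and was left out of its list's sums.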

Additional observations from a re-analysis of the deposited data

Results flagged for a closer look

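Of the 10 members, Jag1 alone moved in opposite directions without overlap in the 2 substrains. How many of all tested genes did so was not counted. Taken singly, 13.4% of all genes were higher in Ajcl and 15.1% lower in ByJcl without overlap. Jag1 was above baseline in both Ajcl Day 5 libraries of the fit and below baseline in all 3 ByJcl Day 5 libraries. The highest of these 3 stood at 72.87 CPM, beside 72.97 CPM in the lowest ByJcl baseline library. The difference between the log2 changes was -0.33 (SE 0.14, unadjusted p = 0.0353, edgeR adjusted p = 0.62), so it was not called. With Ajcl Day 5 replicate 1, at 53.3 CPM, the Ajcl groups overlapped and the Ajcl change was negative. The difference was then -0.13 (edgeR adjusted p = 1.0). With the transcript length correction it was -0.20 (edgeR adjusted p = 0.752). Single outlying libraries were not tested for, because groups held 3 libraries or fewer.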

How the results depend on the processing

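Dll4 kept its calls in ByJcl and averaged over substrains in all 24 and 23 alternatives run, with log2 changes from -1.64 to -1.25 in ByJcl over fits without 1 library. The number of members called in ByJcl was 2, and it was 4 in DESeq2, which added Hey1 and Notch4, and 1 to 4 without 1 library. It was 1 without ByJcl baseline replicate 1 or 2 or ByJcl Day 5 replicate 1 or 2, and 4 without Ajcl baseline replicate 1, where Notch1 and Notch4 were added. Averaged over substrains it was 3, and 1 to 3 without 1 library, with 1 without Ajcl Day 5 replicate 3 or ByJcl Day 5 replicate 2. Leaving out Ajcl Day 5 replicate 2 or 3 left 1 library there, which is then assumed to vary like the other groups.

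Correlations between the deviations of same-numbered libraries were mixed, from -0.238 to 0.374, and not every library correlated best with its own number. Pairing was not shown, and the numbers were treated as names only. With the replicate block the members called in ByJcl were 2 and averaged over substrains 2, since Hey1 had an adjusted p of 0.0701 (log2 change -0.76) and, with the length correction added, 0.0658. Over all 7 comparisons the block changed no other call of a member.

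The 35 log2 changes recomputed were chosen after the values and their sign changes had been seen. Of their 833 alternative values 27 had the other sign. Over all 70 pairs of member and comparison it was 93 of 1650, in 24 pairs, and none of these was called in either fit. The 27 are as follows. With all 12 libraries the Ajcl changes at Day 5 were -0.28 (Notch1), -0.12 (Notch2), -0.10 (Notch3), -0.0044 (Notch4) and -0.028 (Jag1). With the block added they were -0.32, -0.16, -0.13, -0.012 and -0.036, and with DESeq2 -0.27, -0.11, -0.087 and, for Jag1, -0.014. With all 12 libraries and the length correction they were -0.21 (Notch1), -0.057 (Notch2) and -0.031 (Notch3). Notch1 in Ajcl was -0.0058 with the block, -0.051 with block and length correction, and -0.17 to 0.28 without 1 library. Heyl in Ajcl ranged from -0.57 to 0.034 without 1 library. Hes1 in ByJcl was -0.034 with the length correction, -0.032 with 12 libraries added, -0.043 with the block added, and -0.096 to 0.16 without 1 library. The cause was not tested.

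With the third Ajcl Day 5 library restored, the mean shares of the receptors there were 20.5% (Notch1), 8.94% (Notch2) and 48.4% (Notch4). Notch1 then stood at 28.1 per 1000 CPM of endothelial markers and Notch3 at 76.8 per 1000 CPM of mural markers.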
